A study of Homo sapiens with 6 samples.

Results

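The enzymes described here modify transfer RNA (tRNA), and their mRNAs were measured in K562 cells, an established line derived from chronic myeloid leukaemia. They were chosen by name, with earlier results of these data known. The 58 gene symbols were looked up by NCBI Gene identifier among the 25702 identifiers that every table lists. All 58 were found, and all 58 were among the 15431 genes with enough counts to be tested. The cells received a pCMV-HA plasmid by Nucleofector. The plasmid was empty (EV), carried wild-type MXD3, or carried the fusion STIM1::MXD3, with 2 libraries in each of the 3 groups. No other treatment was given, the cells of all groups were transfected, and no sorting of transfected cells is described for these libraries, so each value averages over cells with and without plasmid, and in such bulk RNA fewer expressing cells and less RNA per cell cannot be told apart. The plasmids drive their inserts from a viral promoter, so MXD3 stood far above its usual level, and the study describes the 2 libraries of a group as separate transfections.

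A tRNA carries many chemically altered nucleotides. Those in and beside the anticodon affect how codons are read, and those in the body of the molecule affect its folding and stability. Each alteration is made by its own enzyme or complex, most of them in the cytosol or nucleus and some in mitochondria. MXD3 is a basic helix-loop-helix protein that pairs with MAX and opposes MYC at E-box sequences, and many genes for making ribosomes and tRNAs are known MYC targets. The comparisons ask whether mRNA levels of these enzymes differed between cells with the fusion, with MXD3 and with the empty plasmid.

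The total number of counts per library was between 53048343 and 63835779, and a tRNA modification enzyme had between 289 and 9604 counts in a library. Levels are given as counts-per-million (CPM) after TMM scaling of library sizes. MXD3 was at 9.33 and 11.7 CPM in the EV libraries, 2520 and 2160 CPM in the MXD3 libraries, and 1980 and 1850 CPM in the STIM1::MXD3 libraries. STIM1 was at 159 to 205 CPM in the first 4 of these and at 471 and 453 CPM with the fusion. All 12 erythroid genes checked for K562 identity were at a mean of 1 CPM or more, with a summed level of 8890 and 8050 CPM in EV, 9450 and 7990 CPM in MXD3, and 10000 and 7180 CPM in STIM1::MXD3. Of 5 defining genes each for T cells, B cells and monocytes, 1 of each reached 1 CPM, with summed levels of 14.2 to 21.3, 1.35 to 2.32 and 22.1 to 27.5 CPM, and MS4A1 and CD163 had no counts. Of 5 fibroblast or epithelial genes, KRT8, COL1A1 and EPCAM were at 1 CPM or more, with a summed level of 402 to 492 CPM.

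None of the 58 genes passed an adjusted p of 0.05 between plasmids without a term for the replicate number. With that term, DESeq2 called QTRT2 and PUS1 in MXD3 against EV and edgeR called neither. In STIM1::MXD3 against EV, edgeR called 0 of the 58 and 0.00648% of all genes tested, which is MXD3 alone. In MXD3 against EV it called 0 of the 58 and again 0.00648% of all genes, and in STIM1::MXD3 against MXD3 it called 0 of the 58 and 0.0% of all genes. At an unadjusted p under 0.05 the numbers were 0, 3 and 2 of the 58, against 0.953%, 1.86% and 1.01% of all genes tested. DESeq2 without a term for the replicate number also called 0 of the 58 in each comparison. The standard error (SE) of a gene's log2 fold change had a median of 0.17 over the 58 genes and ranged from 0.11 to 0.38.

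Most of the enzymes were slightly higher in cells with the fusion than in EV cells. The list was chosen with earlier results of these data known, so the counts and shares below only describe it. In STIM1::MXD3 against EV, 48 of the 58 genes (82.8%) had a log2 fold change above 0, against 52.1% of all genes tested. The median was 0.12 on the log2 scale, with a range of -0.17 to 0.44, and the median over all genes tested was 0.01. Within replicate pairs the medians were 0.17 and 0.12. Higher values with the fusion in both pairs were seen for 37 genes (63.8%), against 27.2% of all genes. Both STIM1::MXD3 libraries stood above both EV libraries for 18 genes (31.0%), against 12.0% of all genes. Only TRMT2A and LAGE3 had both STIM1::MXD3 libraries below both EV libraries, against 10.0% of all genes. The count above 0 changed when 1 library was left out. Without STIM1::MXD3 replicate 1 it was 37 of 58, the lowest of the values with 1 library left out, and 15 of the 58 genes changed sign. These fits had no term for the replicate number, so leaving out 1 library also left the replicate numbers unequal between groups. The part of the single library and that of the replicate number cannot be told apart in them. With a term for the replicate number and all 6 libraries the count was 47.

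In MXD3 against EV, which uses the same EV libraries, 33 genes (56.9%) had a log2 fold change above 0, against 50.2% of all genes. The median was 0.08, with a wider range of -0.27 to 0.66. In both pairs 29 of the 58 genes were higher, against 30.6% of all genes. Both MXD3 libraries stood above both EV libraries for 16 genes (27.6%), against 16.2% of all genes, and below them for 5 genes (TRMT1, TRMT2A, TPRKB, LAGE3 and DUS1L), against 14.8%. In STIM1::MXD3 against MXD3, 36 genes (62.1%) had a log2 fold change above 0, against 52.1% of all genes, with a median of 0.03 and a range of -0.26 to 0.50. In both pairs 19 genes (32.8%) were higher, against 27.5%. There 8 genes stood above without overlap, against 10.9% of all genes, and 4 stood below, against 10.2%. Over 10192 other genes with a mean of at least 5 CPM, the medians of the 3 comparisons were 0.003, -0.002 and 0.007, and 5201, 5047 and 5313 of them were above 0. These are counts of genes in the same few libraries, and the list itself, chosen with earlier results of these data known, was not tested.

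**Figure D1:**
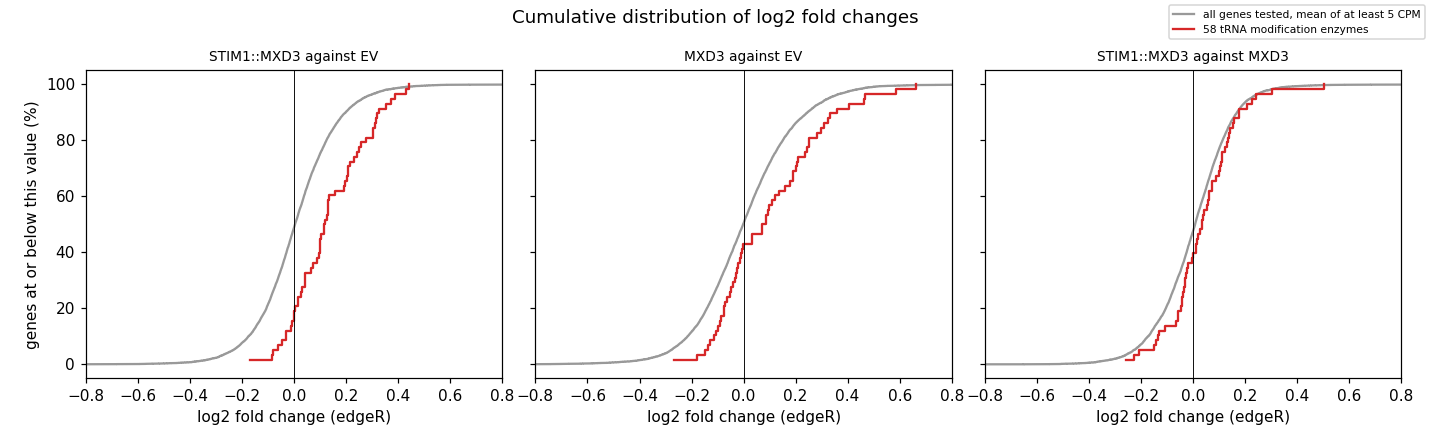
Cumulative share of genes (vertical axis, %) at or below a log2 fold change (horizontal axis) in the 3 comparisons, for the 58 tRNA modification enzymes (red) and for all genes tested with a mean of at least 5 CPM (grey). The red line lies to the right of the grey line in STIM1::MXD3 against EV, where 48 of 58 genes are above 0, and lies close to it in STIM1::MXD3 against MXD3, where 36 of 58 are.

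The summed level of the 58 genes was 2094 and 2127 CPM in the EV libraries, 2150 and 2188 CPM in the MXD3 libraries and 2255 and 2260 CPM in the STIM1::MXD3 libraries. The 3 groups did not overlap in this sum, and neither did they in that of the other tRNA modification genes described below. Their sum was 1284 and 1323 CPM in EV, 1352 and 1354 CPM in MXD3 and 1360 and 1386 CPM in STIM1::MXD3. In the sum of the genes for cutting, splicing, end addition and export of tRNA the groups overlapped. The 58 genes held 0.201% to 0.233% of the counts of a library.

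Queuosine enzymes. QTRT1 and QTRT2 form the guanine transglycosylase that puts the queuosine base into the wobble position of tRNAs, and both had higher values with the fusion than in EV. QTRT1, the catalytic subunit (GRCh37 chromosome 19, 10812106 to 10824113, 10 exons), was at 17.6 and 14.2 CPM in EV, 15.2 and 13.8 CPM in MXD3 and 21.3 and 19.8 CPM in STIM1::MXD3. Only the STIM1::MXD3 libraries stood apart from the other 4. The log2 fold change of QTRT1 was 0.50 ± 0.17 (SE, n = 2 against 2) in STIM1::MXD3 against MXD3, the highest of the 58, with an unadjusted p of 0.022 and an adjusted p of 1.0 in edgeR. Against EV it was 0.37 ± 0.17 with the fusion and -0.13 ± 0.17 with MXD3, where the libraries overlapped EV and the sign turned without EV replicate 1 (0.03). Within the pairs the value with MXD3 was -0.21 and -0.04. QTRT2, the partner subunit, was at 6.75 and 8.67 CPM in EV, 10.6 and 13.8 CPM in MXD3 and 8.74 and 12.1 CPM in STIM1::MXD3, so both plasmids with an insert stood above EV. Its log2 fold change against EV was 0.66 ± 0.25 with MXD3, the highest of the 58 (edgeR unadjusted p = 0.034, adjusted p = 1.0, and adjusted p = 0.0191 in DESeq2 with the replicate block), and 0.43 ± 0.25 with the fusion.

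The windows around the start site are shown for QTRT1, TRMT61A and PUS7, because MXD3 and MYC bind E-boxes. These are the genes among the 4 smallest p-values of STIM1::MXD3 against EV, in the fit without a replicate term, whose window holds an E-box. Each is written 5′ to 3′ in the direction of the gene, from 250 bases before the start site to 50 after it, from RefSeq on GRCh38.p14, with the E-box CACGTG in capitals. They are QTRT1 at chr19:10701189-10701488 (+), TRMT61A at chr14:103528946-103529245 (+) and PUS7 at chr7:105522222-105522521 (-).
QTRT1: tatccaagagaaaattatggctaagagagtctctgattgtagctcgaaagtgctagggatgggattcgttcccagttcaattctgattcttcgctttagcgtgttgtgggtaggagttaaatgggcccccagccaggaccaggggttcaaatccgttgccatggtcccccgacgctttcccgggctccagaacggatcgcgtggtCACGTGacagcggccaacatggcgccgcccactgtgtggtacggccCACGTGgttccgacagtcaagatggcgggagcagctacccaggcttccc
TRMT61A: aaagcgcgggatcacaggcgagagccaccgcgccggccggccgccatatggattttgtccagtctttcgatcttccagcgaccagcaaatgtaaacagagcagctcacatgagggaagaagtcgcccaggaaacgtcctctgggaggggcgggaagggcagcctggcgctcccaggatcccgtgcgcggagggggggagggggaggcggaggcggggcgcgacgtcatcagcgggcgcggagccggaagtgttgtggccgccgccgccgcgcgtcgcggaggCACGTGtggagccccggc
PUS7: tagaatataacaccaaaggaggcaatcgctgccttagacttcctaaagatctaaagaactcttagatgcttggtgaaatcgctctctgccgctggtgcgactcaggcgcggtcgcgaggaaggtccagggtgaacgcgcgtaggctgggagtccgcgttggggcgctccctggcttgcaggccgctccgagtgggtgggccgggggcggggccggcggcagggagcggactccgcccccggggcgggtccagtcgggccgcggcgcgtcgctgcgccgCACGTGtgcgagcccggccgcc

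QTRT1 had 2 such motifs, 45 bases before and 1 base after the start site, PUS7 had 1 that began 28 bases after it, and TRMT61A had 1 that began 32 bases after it. The motif reads the same on both strands. It was found in the windows of 5 of the 48 enzymes with a window (10.4%), the other two being TRMT6 and TRUB2, against 1405 of 11468 tested genes with a window (12.3%) and 7.3% of all 35116 windows. The median log2 fold change in STIM1::MXD3 against EV was 0.28 for the 5 genes with the motif and 0.11 for the others, and over all tested genes it was 0.02 and 0.01. For 32 other tRNA modification genes with a window the order was the reverse, at 0.06 for the 4 with the motif and 0.09 for the others. In MXD3 against EV the enzymes were at 0.19 with the motif and 0.08 without, and the other tRNA modification genes at 0.0 and 0.07. In STIM1::MXD3 against MXD3 the enzymes were at 0.14 and 0.03. A match is a run of letters and not a measured binding site. The 10 enzymes without a window were ELP3, TRIT1, TRMT12, TRMT2A, URM1, METTL1, TYW3, PUS1, NSUN2 and MTO1.

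Methyltransferases acting on bases. Of these 14 genes, 12 had a log2 fold change above 0 with the fusion (median 0.24) and 9 with MXD3 (median 0.20). TRMT61A, which makes methyladenosine in the T loop together with TRMT6, was at 9.97 and 10.6 CPM in EV, 11.8 and 12.6 CPM in MXD3 and 12.2 and 14.7 CPM in STIM1::MXD3. Both insert groups stood above EV. In the fit without a replicate term, TRMT61A had the smallest unadjusted p of the 58 in STIM1::MXD3 against EV, with a log2 fold change of 0.39 ± 0.18 (edgeR unadjusted p = 0.064, adjusted p = 1.0). With the replicate block its edgeR unadjusted p was 0.0196, and that of PUS7 was smaller, at 0.0082. TRMT6, its non-catalytic partner, followed the replicate number instead, at 9.92 and 14.6 CPM in EV, 11.3 and 16.7 CPM in MXD3 and 10.5 and 16.3 CPM in STIM1::MXD3. TRMT1L, a relative of the dimethylguanosine enzyme TRMT1, was at 40.1 and 33.1 CPM in EV, 41.0 and 43.6 CPM in MXD3 and 48.5 and 42.5 CPM in STIM1::MXD3. The EV libraries were the lowest again, and the log2 fold change with the fusion was 0.31 ± 0.15.

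TRMT1 itself, which dimethylates a guanosine at the base of the D arm, was at 59.8 and 60.7 CPM in EV, 53.6 and 59.8 CPM in MXD3 and 70.7 and 69.3 CPM in STIM1::MXD3. Both fusion libraries stood above the other 4, and both MXD3 libraries stood below EV, one of them narrowly. The log2 fold change in STIM1::MXD3 against MXD3 was 0.30 ± 0.12 (edgeR unadjusted p = 0.041, adjusted p = 1.0), and against EV it was 0.22 ± 0.12 with the fusion and -0.09 ± 0.12 with MXD3. QTRT1 and TRMT1 were the 2 genes at an unadjusted p under 0.05 in that comparison.

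METTL1 and WDR4, the enzyme and partner that methylate guanosine in the variable loop, had log2 fold changes of 0.32 and 0.26 with the fusion and 0.36 and 0.41 with MXD3. WDR4 was at 19.8 and 23.2 CPM in EV, 28.0 and 28.9 CPM in MXD3 and 20.1 and 31.1 CPM in STIM1::MXD3, so the MXD3 libraries stood above EV and the fusion libraries spanned both. TRMT10C, a mitochondrial guanosine methyltransferase that is also part of mitochondrial RNase P, was at 18.8 and 20.6 CPM in EV, 24.2 and 24.1 CPM in MXD3 and 20.7 and 29.6 CPM in STIM1::MXD3. TRMT2A, which methylates uridine in the T loop, went the other way, at 124 and 132 CPM in EV, 110 and 122 CPM in MXD3 and 108 and 120 CPM in STIM1::MXD3. Its log2 fold change was the lowest of the 58 with the fusion, at -0.17 ± 0.13, and was -0.14 ± 0.13 with MXD3. Of its exon bases 10.0% are shared with DGCR8 and RANBP1 on the other strand, and whether counting used strand is not given in the sources used here.

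**Figure D2:**
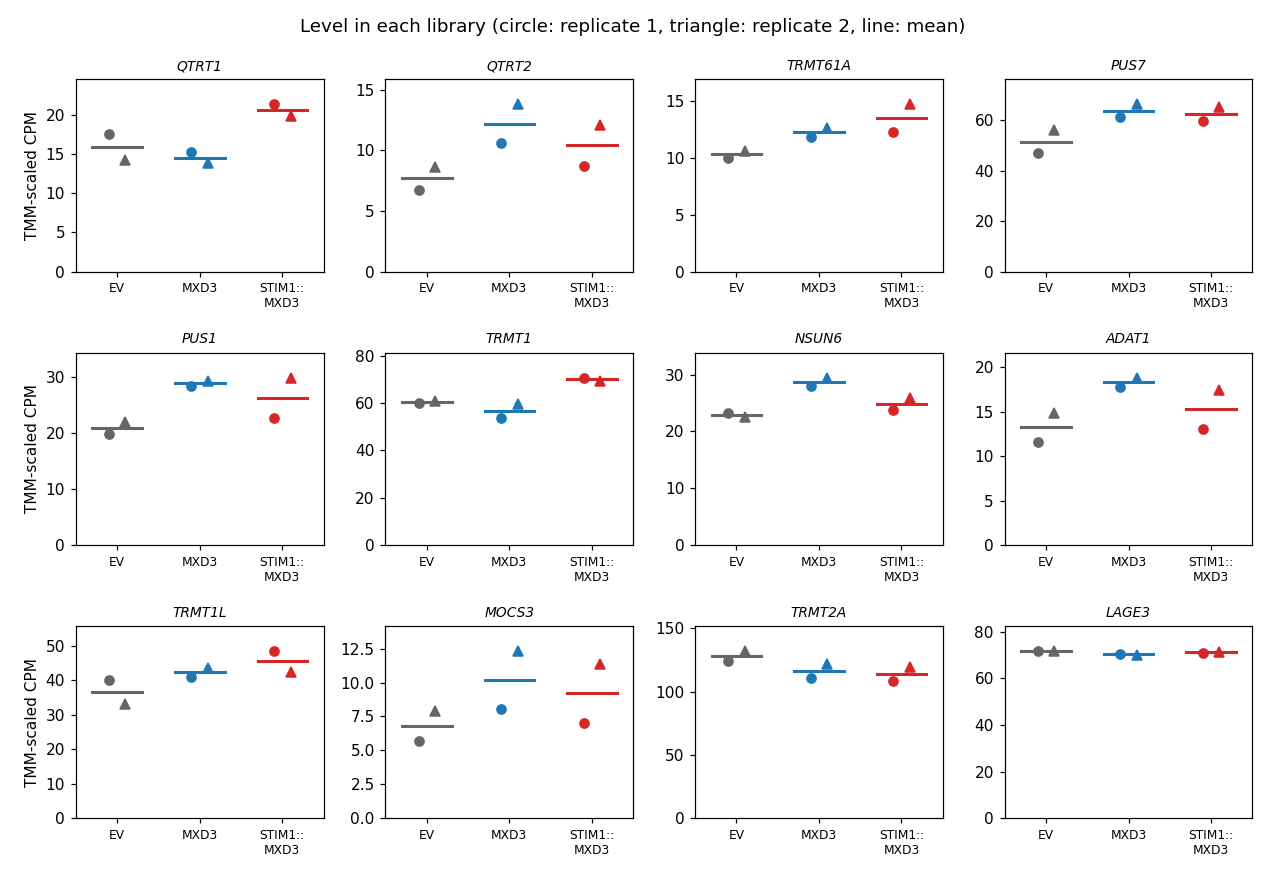
TMM-scaled CPM (vertical axis, from 0) in each of the 6 libraries for 12 enzymes, by plasmid, with circles for replicate 1, triangles for replicate 2 and a line at the mean of the 2 libraries. QTRT1 and TRMT1 are highest in both STIM1::MXD3 libraries, QTRT2, TRMT61A, PUS7 and PUS1 are above EV with both inserts, and LAGE3 is level. The 12 are a part of the enzymes named by rule, and no rule set which of them were drawn. CTU1, TRMT112, ELP4 and THADA, with the smallest p-values between replicate numbers, are not drawn.

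Pseudouridine synthases. These turn uridine into pseudouridine at set places, and all 6 had a log2 fold change above 0 with the fusion (median 0.19, from 0.04 to 0.33), against 4 of 6 with MXD3 (median 0.23). In STIM1::MXD3 against MXD3 2 of 6 were above 0 (median -0.04), and PUS3 and PUS10 were below 0 with the fusion against EV under some alternatives, down to -0.1 and -0.15. PUS7 was at 47.1 and 56.0 CPM in EV, 61.4 and 66.3 CPM in MXD3 and 59.8 and 65.1 CPM in STIM1::MXD3. Both inserts gave levels above EV, with log2 fold changes of 0.28 ± 0.14 with the fusion (edgeR unadjusted p = 0.087) and 0.31 ± 0.14 with MXD3 (edgeR unadjusted p = 0.063). PUS1, which acts in nucleus and mitochondria, was at 19.9 and 22.0 CPM in EV, 28.4 and 29.4 CPM in MXD3 and 22.7 and 30.0 CPM in STIM1::MXD3. Its log2 fold change with MXD3 was 0.46 ± 0.17 (edgeR unadjusted p = 0.031, adjusted p = 1.0, and adjusted p = 0.043 in DESeq2 with the replicate block). In the remaining genes PUS3, PUS10, TRUB1 and TRUB2 the log2 fold change with the fusion was between 0.04 and 0.24.

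Cytosine methylation, inosine and ribose methylation. All 4 cytosine genes, NSUN2, NSUN3, NSUN6 and ALKBH1, were above 0 with the fusion (median 0.11) and 2 of 4 with MXD3 (median 0.09). With the fusion 2 of the 4 were higher in both pairs. NSUN3 was at 0.33 and -0.16 in the pairs and ALKBH1 at 0.27 and -0.12. NSUN6, which methylates cytosine near the acceptor end, was at 23.3 and 22.5 CPM in EV, 28.0 and 29.5 CPM in MXD3 and 23.7 and 25.9 CPM in STIM1::MXD3. The MXD3 libraries were above the other 4, with a log2 fold change against EV of 0.33 ± 0.14 (edgeR unadjusted p = 0.047, adjusted p = 1.0). ADAT1, the deaminase that makes inosine in alanine tRNA, had the same order, at 11.6 and 14.9 CPM in EV, 17.8 and 18.8 CPM in MXD3 and 13.1 and 17.5 CPM in STIM1::MXD3. It had the lowest log2 fold change of the 58 in STIM1::MXD3 against MXD3, at -0.26 ± 0.21, and 0.47 ± 0.21 in MXD3 against EV. The first value ran from -0.49 to -0.07 when either fusion library was left out (-0.07 without STIM1::MXD3 replicate 1). NSUN6, PUS1 and QTRT2 were the 3 genes at an unadjusted p under 0.05 in MXD3 against EV. The wobble deaminase pair ADAT2 and ADAT3 was nearer to 0, with log2 fold changes of 0.03 and -0.002 with the fusion and 0.16 and -0.07 with MXD3. The 4 ribose methylation genes TRMT13, TRMT44, FTSJ1 and THADA were between 0.03 and 0.25 with the fusion, and TRMT44 alone had both insert groups above EV, at 7.56 and 8.0 CPM in EV, 9.38 and 8.95 CPM in MXD3 and 8.99 and 9.49 CPM in STIM1::MXD3. Of these 4 genes 2 were higher with the fusion in both pairs. THADA was at 0.20 and -0.20 in the pairs and TRMT13 at 0.19 and -0.002. TRMT12 and TYW3, of the wybutosine pathway, had log2 fold changes of 0.01 and 0.19 with the fusion.

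Wobble uridine. The Elongator complex starts the side chain on wobble uridine, ALKBH8 completes it, and URM1, MOCS3, CTU1 and CTU2 add sulphur. With the fusion 9 of these 10 genes had a log2 fold change above 0 (median 0.15), and with MXD3 6 of 10 (median 0.08). The 5 Elongator genes measured here, ELP2 to ELP6, had values with the fusion from 0.02 for ELP4 to 0.30 for ELP5. ELP4 was at -0.02 in edgeR and -0.03 in DESeq2 with the replicate block, and at 0.17 and -0.22 in the pairs. ELP2 was at 136 and 117 CPM in EV, 121 and 114 CPM in MXD3 and 157 and 121 CPM in STIM1::MXD3, with a log2 fold change of 0.24 ± 0.16 in STIM1::MXD3 against MXD3, which was 0.04 without STIM1::MXD3 replicate 1. MOCS3, which activates URM1, had the highest log2 fold change of the wobble uridine genes with both inserts, 0.44 ± 0.33 with the fusion and 0.59 ± 0.33 with MXD3. Its libraries were at 5.67 and 7.88 CPM in EV, 8.06 and 12.3 CPM in MXD3 and 7.02 and 11.4 CPM in STIM1::MXD3, and replicate 2 was the higher in every group. With 1 library left out the value with the fusion ran from 0.04 without STIM1::MXD3 replicate 2 to 0.75 without STIM1::MXD3 replicate 1. Within the pairs it was 0.31 and 0.53. CTU1, which transfers the sulphur with CTU2, had the lowest log2 fold change with MXD3, -0.27 ± 0.38, and the largest SE. It was at 34.1 and 23.7 CPM in EV, 30.8 and 17.2 CPM in MXD3 and 36.2 and 19.2 CPM in STIM1::MXD3. Its 3 groups overlapped, and the sign in MXD3 against EV turned without EV replicate 1 (0.02) and without MXD3 replicate 2 (0.08). Both of these fits left the replicate numbers unequal between the groups. Within the pairs CTU1 was lower with MXD3 both times, at -0.15 and -0.46. With the replicate block it was at -0.31 ± 0.12 (edgeR unadjusted p = 0.021, adjusted p = 0.268). The mitochondrial wobble uridine enzymes GTPBP3 and MTO1 had log2 fold changes of 0.07 and 0.10 with the fusion and 0.11 and -0.02 with MXD3.

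Adenosine next to the anticodon and dihydrouridine. The KEOPS genes OSGEP, TPRKB, TP53RK and LAGE3 make threonylcarbamoyladenosine, TRIT1 adds the isopentenyl group, and CDK5RAP1 and CDKAL1 add methylthio groups. Of the role groups this one had a median below 0 in both comparisons with EV, and no other did. It had 2 of 7 genes above 0 in each of them, medians of -0.03 with the fusion and -0.02 with MXD3, and a range of -0.09 to 0.04 with the fusion. LAGE3 was at 71.7 and 71.7 CPM in EV, 70.6 and 69.9 CPM in MXD3 and 70.8 and 71.4 CPM in STIM1::MXD3. It is among the genes without overlap although its mean log2 difference from EV was -0.01 with the fusion. TPRKB was at 25.4 and 27.5 CPM in EV, 22.7 and 24.0 CPM in MXD3 and 25.3 and 25.9 CPM in STIM1::MXD3, with a log2 fold change of -0.18 ± 0.13 with MXD3. CDKAL1 was at 51.7 and 49.2 CPM in EV, 51.2 and 43.1 CPM in MXD3 and 54.2 and 40.9 CPM in STIM1::MXD3, so its groups overlapped. Of the dihydrouridine synthases DUS1L, DUS2, DUS3L and DUS4L, 3 of 4 were above 0 with the fusion (median 0.06) and 2 of 4 with MXD3 (median 0.03).

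**Figure D3:**
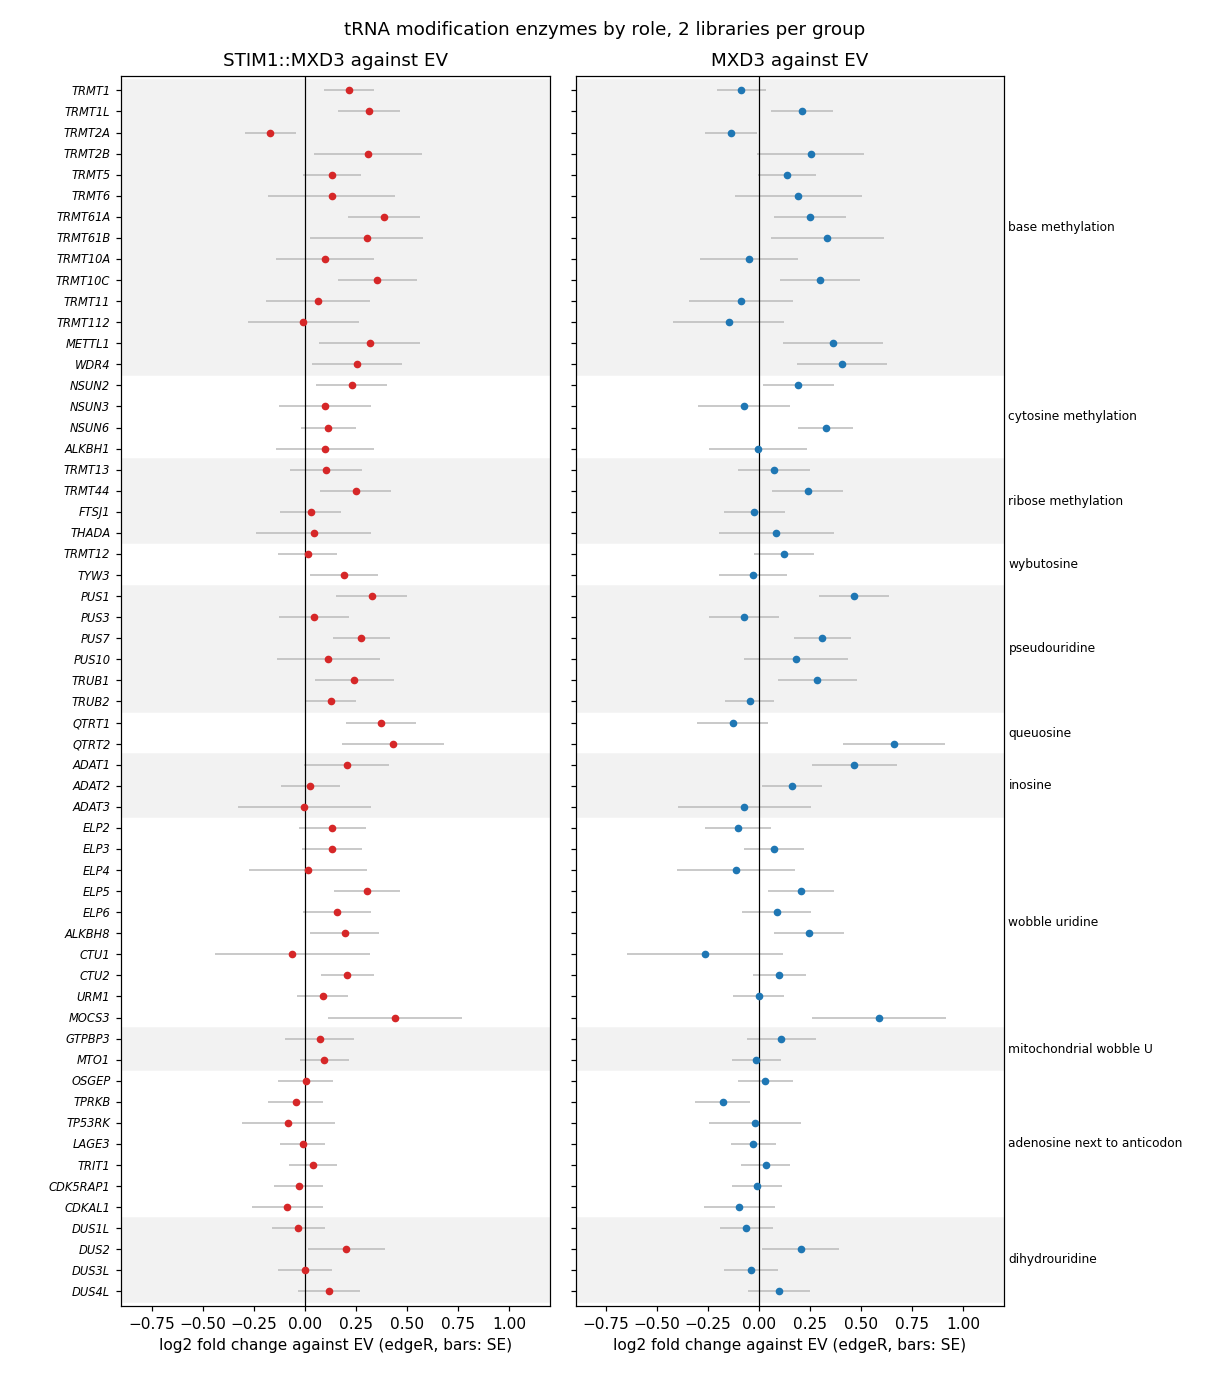
Log2 fold change against EV (horizontal axis, points) with its SE (bars) for the 58 enzymes, ordered by role, for STIM1::MXD3 (left, red) and MXD3 (right, blue), which share the EV libraries. Most points of the left panel lie above 0 (48 of 58), and the 7 points for adenosine next to the anticodon lie between -0.09 and 0.04.

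Libraries with the same replicate number moved together, so the replicate number was also put into the fit as a block. With the block, edgeR still called 0 of the 58 in each comparison, and 0.292% of all genes in MXD3 against EV. DESeq2 with the block called PUS1 (adjusted p = 0.043) and QTRT2 (adjusted p = 0.0191) in MXD3 against EV, 2 of the 58, against 1.54% of all genes tested. In edgeR with the block the adjusted p was 0.124 for PUS1 and 0.0863 for QTRT2. At an unadjusted p under 0.05 with the block, edgeR found 12 of the 58 (20.7%) in STIM1::MXD3 against EV, against 8.5% of all genes. They were TRMT1, TRMT1L, TRMT2B, TRMT61A, TRMT10C, NSUN2, PUS1, PUS7, QTRT1, QTRT2, ELP5 and MOCS3, all with a log2 fold change above 0. The numbers were 11 of the 58 (19.0%) in MXD3 against EV, against 13.9% of all genes, and 3 of the 58 (TRMT1, QTRT1 and ELP2) in STIM1::MXD3 against MXD3, against 6.49%.

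Differences between replicate numbers were larger than those between plasmids for many of the enzymes. In replicate 2 against replicate 1, with the plasmid in the fit, 10 genes (17.2%) were higher at an adjusted p under 0.05, against 13.1% of all genes tested, and 8 genes (13.8%) were lower, against 16.1%. Those higher in replicate 2 were TRMT2B, TRMT6, TRMT61B, TRMT112, WDR4, NSUN2, QTRT2, ELP6, MOCS3 and GTPBP3. Those lower were TRMT11, ALKBH1, THADA, ADAT3, ELP2, ELP4, CTU1 and CDKAL1. The median size of the difference, without its sign, was 0.194 between replicate numbers, against 0.124, 0.118 and 0.0723 on the log2 scale for the fusion against EV, for MXD3 against EV and for the fusion against MXD3. In 26 of the 58 genes (44.8%) it was larger than all 3 plasmid differences, as it was in 56.7% of 10250 genes with a mean of at least 5 CPM.

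CTU1 had the largest replicate difference, with a log2 fold change of -0.76 ± 0.10 (edgeR adjusted p = 5.9e-05), and was lower in replicate 2 by 0.53 to 0.91 in the 3 groups. TRMT112, the small partner that several methyltransferases need, differed by 0.53 ± 0.07 (edgeR adjusted p = 8.04e-05), at 82.9 and 112 CPM in EV, 70.0 and 106 CPM in MXD3 and 78.2 and 116 CPM in STIM1::MXD3. In each group replicate 2 was the higher. ELP4 differed by -0.54 ± 0.09, at 48.2 and 36.7 CPM in EV, 45.1 and 33.2 CPM in MXD3 and 54.2 and 31.5 CPM in STIM1::MXD3. THADA, the partner of the ribose methyltransferase FTSJ1, differed by -0.52 ± 0.09, at 73.9 and 56.8 CPM in EV, 79.0 and 59.5 CPM in MXD3 and 85.0 and 49.6 CPM in STIM1::MXD3. The summed level of the erythroid genes was also lower in replicate 2 of every group, and its part in these differences was not tested. TRMT112 shares 25.8% of its exon bases with ESRRA, ADAT3 shares 34.8% with SCAMP4 and ELP4 shares 19.2% with PAX6. TRMT61B shares 22.8% with SPDYA, ELP5 18.2% with CTDNEP1 and CLDN7, TRMT13 13.1% with LRRC39, and METTL1 11.4% with CYP27B1 and EEF1AKMT3. The counts of all these enzymes are uncertain.

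**Figure D4:**
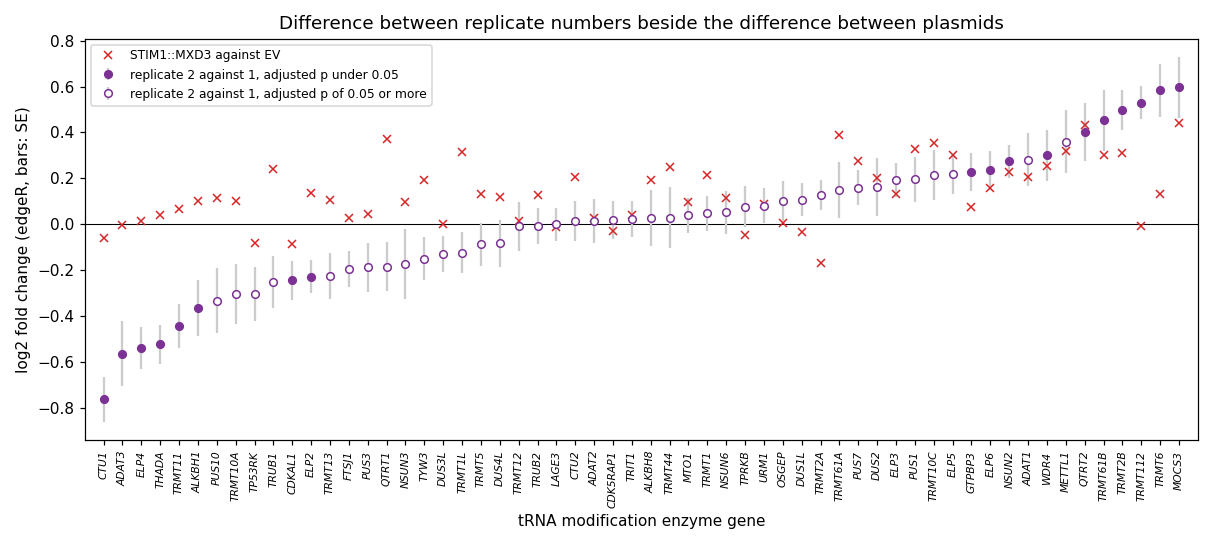
Log2 fold change (vertical axis) of replicate 2 against replicate 1 (purple circles, bars SE, filled where the adjusted p is under 0.05) for the 58 enzymes in order of that value, beside STIM1::MXD3 against EV (red crosses). The replicate difference runs from -0.76 for CTU1 to 0.60 for MOCS3, and 18 circles are filled.

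Expression per kilobase of transcript, which allows a rough comparison of genes, spanned 2 orders of magnitude in EV. The length was that of a single transcript per gene, and the SD does not cover which transcripts the cells used. TRMT112 was the highest at 119.9 ± 25 CPM per kilobase (SD, n = 2), followed by LAGE3 at 74.1 and DUS1L at 44.7. TRMT2A at 44.4 ± 2.0 could not be told from DUS1L at 44.7 ± 0.7. The lowest were NSUN3, a mitochondrial cytosine methyltransferase, at 0.953 ± 0.044, MOCS3 at 1.33 ± 0.30 and QTRT2 at 1.92 ± 0.34 CPM per kilobase, and the spread of MOCS3 and QTRT2 was about as wide as the gap between them. NSUN3 was at 5.93 and 6.33 CPM in EV, 6.24 and 5.39 CPM in MXD3 and 7.46 and 5.68 CPM in STIM1::MXD3. DUS1L was at 98.7 and 101 CPM in EV, 93.9 and 97.2 CPM in MXD3 and 89.6 and 106 CPM in STIM1::MXD3. Some partners in a complex differed in level and others did not. QTRT1 was at 11.9 ± 1.8 CPM per kilobase against 1.92 ± 0.34 for QTRT2, and WDR4 was at 10.2 ± 1.1 against 4.95 ± 0.54 for METTL1. The lengths used were 1329 bases for QTRT1 and 4023 for QTRT2, and their EV means without division by length were 15.9 and 7.71 CPM. The gap per kilobase was within the spread for ADAT2 (4.6 ± 0.42) and ADAT3 (5.35 ± 1.3), and for TRMT6 (4.18 ± 1.1) and TRMT61A (3.20 ± 0.14).

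**Figure D5:**
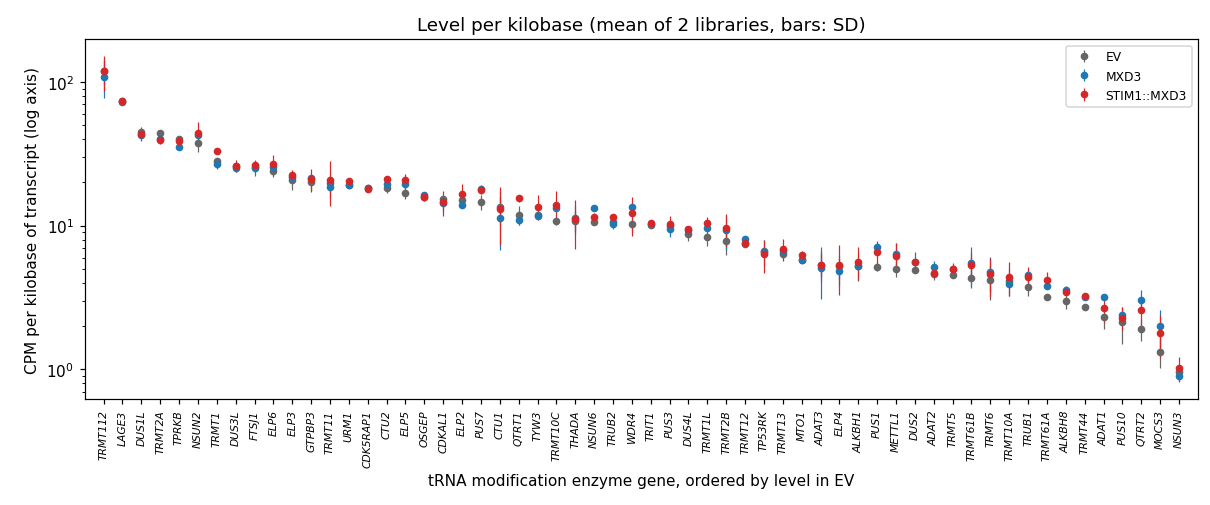
CPM per kilobase of transcript (vertical log axis, mean of 2 libraries, bars SD) of the 58 enzymes in EV, MXD3 and STIM1::MXD3, in order of the level in EV. TRMT112 and LAGE3 are the highest and NSUN3 the lowest in EV, and the groups of a gene lie close together against the spread between genes.

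Genes of the same field that are not among the 58 were counted in the same way. Of 38 other tRNA modification genes 37 could be tested, and 30, 27 and 21 of them had a log2 fold change above 0 with the fusion against EV, with MXD3 against EV and with the fusion against MXD3, with medians of 0.09, 0.05 and 0.04. None of the 37 passed an adjusted or an unadjusted p of 0.05 in edgeR, and DESeq2 called 0 of them. Of 29 genes for cutting, splicing, end addition and export of tRNA 28 could be tested, and 19, 20 and 15 were above 0, with medians of 0.06, 0.07 and 0.01. TRNT1, which adds the CCA end, was at 19.5 and 19.4 CPM in EV, 27.5 and 23.2 CPM in MXD3 and 21.2 and 22.2 CPM in STIM1::MXD3. Its log2 fold change with MXD3 was 0.38 ± 0.15 (edgeR unadjusted p = 0.0378, adjusted p = 0.999), and it was the only one of the 28 at an unadjusted p under 0.05. Of the 58 enzymes, the 8 that act mainly in mitochondria had a median of 0.11 in STIM1::MXD3 against EV and the other 50 had 0.12.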

How the data were processed

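RNA was extracted from transfected K562 cells with a blood RNA kit, enriched for poly A and sequenced as read pairs. The authors deposited 1 table of unnormalised counts for each library, with genes as NCBI Gene identifiers. The submitters' processing notes name HISAT2 2.2.1, featureCounts 2.0.1 and hg19. The annotation, strand setting and counting of pairs are not given in the sources used here, and 59.8% to 67.3% of counts from 1 to 39 were even, so halved counts were an alternative. Of 25702 identifiers 23696 matched a symbol, and TRMT12 is named TYW2 in RefSeq. Identifiers without a symbol held 0.225% to 0.276% of the counts.

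Genes were filtered with filterByExpr (15431 kept), scaled with TMM and tested two-sided in edgeR 4.0.16 (R 4.3.3, quasi-likelihood F test). The fit held all 6 libraries with 1 coefficient per group. Benjamini-Hochberg adjustment ran over every gene tested, and 0.05 was the threshold. Log2 CPM used a prior count of 2. The study's methods use DESeq2 between groups with no covariate, and DESeq2 1.42.0 was the alternative tool. Each group's libraries differed by more than sampling noise (chi-square per degree of freedom 66.5 to 129.4). Deviations from the group means correlated between same-numbered libraries. Over all genes tested, r was 0.270 between EV and MXD3, 0.364 between EV and the fusion, and 0.450 between MXD3 and the fusion. Over genes with a mean of at least 5 CPM it was 0.621, 0.707 and 0.792 in the same order. The replicate numbers were therefore treated as pairing the libraries, from the data, since the labels give only the number. Transcript length and loci came from GENCODE on GRCh37, with the length of the canonical transcript where one was marked. Only the main edgeR fit and the edgeR fit with GC and length offsets were run on simulated counts. DESeq2 and the fits with a replicate term were not. The simulated libraries held no difference shared by a replicate number.

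The 58 members and the other lists were chosen with earlier results of these data known. Values per library are given for the 4 smallest p-values of each comparison, the 2 highest and lowest log2 fold changes of each plasmid comparison and the 3 highest and lowest levels per kilobase in EV, plus subunits of complexes. Values of other genes (TRMT44 and TRMT10C) were chosen after they were seen.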

Additional observations from a re-analysis of the deposited data

How the results depend on the processing

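In STIM1::MXD3 against EV it was 1, and 3 with DESeq2, 2 with no filter on low counts, 3 with the replicate block, 19 with DESeq2 and the block and 3 with GC and length offsets and the block. In MXD3 against EV it was 1, and 3 with DESeq2, 45 with the block, 238 with DESeq2 and the block and 37 with GC and length offsets and the block. In STIM1::MXD3 against MXD3 it was 0, and 1 with DESeq2, 1 with no filter, 1 with the block, 5 with DESeq2 and the block and 1 with GC and length offsets and the block. Members called went from 0 to 2 only in MXD3 against EV with DESeq2 and the block. The pairing changed no other member call between plasmids where an adjusted p was given. In STIM1::MXD3 against MXD3, DESeq2 with the block gave most members no adjusted p, so they could not be called there. Among these were QTRT1 (DESeq2 with the block, unadjusted p = 0.00066) and TRMT1 (unadjusted p = 0.0042).

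The members' median log2 fold change in STIM1::MXD3 against EV was 0.118, and 0.17 in replicate pair 1. In MXD3 against EV it was 0.078, and 0.06 with GC and length offsets, 0.062 with these and the block, 0.061 in pair 1 and 0.055 in pair 2. In replicate 2 against replicate 1 it was 0.026, and 0.088 with upper-quartile scaling, 0.043 with no filter and 0.071 for genes with a mean of at least 5 CPM. With 1 library left out at a time, the medians ranged from 0.1 to 0.145, from 0.054 to 0.091 and from 0.008 to 0.045 in the 3 plasmid comparisons, the members above 0 from 37 to 48, from 33 to 39 and from 30 to 36, the genes called from 1 to 1, from 1 to 2 and from 0 to 0, and members called stayed at 0.

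With 1 of the libraries compared left out, the sign turned for up to 15 of the 58 members in STIM1::MXD3 against EV (without STIM1::MXD3 replicate 1), 19 in MXD3 against EV (without MXD3 replicate 2) and 24 in STIM1::MXD3 against MXD3 (without STIM1::MXD3 replicate 1). Among the members named by rule it turned for CDKAL1 in STIM1::MXD3 against EV without STIM1::MXD3 replicate 2 (0.096, range -0.3 to 0.096 with 1 library left out), for CDKAL1 in MXD3 against EV without MXD3 replicate 2 (0.012, range -0.215 to 0.012), for QTRT1 in MXD3 against EV without EV replicate 1 (0.034, range -0.276 to 0.034), and for CTU1 in MXD3 against EV without EV replicate 1 (0.022) and without MXD3 replicate 2 (0.083), with a range of -0.734 to 0.083. The fits with 1 library left out had no term for the replicate number. Each left the replicate numbers unequal between the groups compared, and the cause of the turns was not tested. The number of members above 0 was put under the alternatives after seeing the data.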

Other observations

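The level of some enzymes was close to constant over the 6 libraries. LAGE3, a KEOPS subunit, had an SD of 0.014 on the log2 scale over the 6 libraries and ranged from 69.9 to 71.7 CPM. CDK5RAP1 (SD 0.024, from 36.8 to 38.7 CPM) and TRIT1 (SD 0.033, from 50.3 to 53.3 CPM), which act one after the other on the adenosine next to the anticodon, came next. The most variable were CTU1 (SD 0.448, from 17.2 to 36.2 CPM), MOCS3 (SD 0.422, from 5.67 to 12.3 CPM) and QTRT2 (SD 0.371, from 6.75 to 13.8 CPM). CTU1 and MOCS3 belong to the same sulphur transfer pathway and moved in opposite directions between replicate numbers, by -0.76 and 0.60 on the log2 scale.

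The GC content of the members' transcripts had a median of 46.3% (33.9% to 71.7%), against 48.9% over all genes. Over the 58 members the Pearson correlation of GC content with the log2 fold change was -0.06 in STIM1::MXD3 against EV and -0.15 in MXD3 against EV. These points share the same 6 libraries.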
